A study of Mus musculus with 12 samples.

Results

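The genes described here are the matrix metalloproteinases (MMPs), the ADAMTS proteases and the tissue inhibitors of metalloproteinases (TIMPs), chosen by symbol as every gene named Mmp with a number and an optional a or b, Adamts with a number, or Timp with a digit. They are 46 of the 47729 genes in the count files: 23 MMP genes, 19 ADAMTS genes and 4 TIMP genes. No measured value entered that choice.

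RNA was sequenced from mesenchymal cells sorted from the uteri of healthy, cycling female mice of the strain Pdgfrb-BAC-eGFP, in which green fluorescent protein (GFP) reports the Pdgfrb gene from a bacterial artificial chromosome. The 6 GFPtotal libraries (titled Naive) hold all GFP-positive cells, and the 6 GFPlow libraries (titled Stromal, with the cells called GFPdim in the sample labels) hold the dimmer cells alone, which the study takes as stromal fibroblasts. GFPtotal thus contains GFPlow cells together with bright cells that the study takes as perivascular, in a proportion not given in the sources used here. No treatment, age or cycle stage is given, and the labels do not link libraries to individual mice, so p-values measure only the spread between these libraries.

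MMPs and ADAMTS proteases are zinc enzymes that cut extracellular matrix and are made with a propeptide that keeps them latent. MMPs as a family degrade collagens, gelatin and basement membrane, while ADAMTS proteases carry thrombospondin repeats and have narrower tasks such as cutting proteoglycans or trimming procollagen. TIMPs block the active site, and Timp3 also inhibits several ADAMTS proteases. In the endometrium these enzymes are known for the remodelling of stroma and vessels over the reproductive cycle.

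Total counts were 12631266 to 18425596 per library, and the 46 genes held 0.267% to 0.631% of the nuclear counts. The first principal component of all genes (34.0% of the variance) set GFPtotal 3, 4 and 5 away from the other 9 libraries. Summed pericyte markers (12 genes) were 946 to 2022 CPM (counts scaled to TMM-adjusted library size) in GFPtotal and 24.2 to 40.2 CPM in GFPlow. For fibroblast markers (12 genes) the GFPtotal sums were 23693 to 40363 CPM and the GFPlow sums 15736 to 23656 CPM. Most of these sums lay in Col1a1, Col1a2 and Col3a1, with means of 10586, 6479 and 11267 CPM in GFPtotal. Of 11 fibroblast markers tested, 1 was called higher in GFPtotal and 1 lower (median log2 fold change 0.30). The mean level of Pdgfrb was 114 ± 36.0 CPM against 65.1 ± 15.0 CPM in the same order (SD over 6 libraries per group), a call at 0.81 on the log2 scale (adjusted p = 0.0305). The counting header of the file for GFPlow 6 names its input N8 where the title says S6. Its pericyte sum, 28.2 CPM, lay within the range of the other GFPlow libraries. Without it the same 6 members were called.

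Of the 46 genes, 27 passed the filter on low counts and were tested, and 6 of them were called higher in GFPtotal (edgeR's quasi-likelihood test, adjusted p below 0.05 over all 14523 genes tested): Adamts16, Adamts5, Adamts3, Adamts6, Adamts1 and Timp2. In all genes tested, 5.41% were called, 4.55% higher and 0.854% lower. The higher genes were 84.2% of these calls, and 66.3% when libraries were scaled by total size alone. None of the 27 was called lower, by edgeR, DESeq2 or limma-voom. In that direction, 0 had an unadjusted p under 0.05 with edgeR and all libraries. The number was 1 of 42 tested with DESeq2 and 1 of 27 with limma-voom. With edgeR it was 3 of 42 with no filter on low counts, and 2 of 28 without GFPtotal 3, 4 and 5. By family, 5 of 16 tested ADAMTS genes, 0 of 8 MMP genes and 1 of 3 TIMP genes were called. The median log2 fold change of the 27 was 0.57, against −0.00060 over all genes tested. Of the 27 values, 23 lay above 0, against 49.98% of all genes tested. Part of this shift rested on GFPtotal 3, 4 and 5: without them, 6 of the 23 moved below 0, and 2 members moved the other way. In sorted bulk samples like these, a different share of a cell type and a different amount of RNA per cell cannot be told apart.

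Without GFPtotal 3, 4 and 5, an alternative chosen after seeing the data, 3 of 28 tested members were called higher (Adamts16, Adamts3 and Adamts2) and 0 lower. In that fit 1.88% of all 15703 genes tested were called, 245 higher and 50 lower. Adamts16 and Adamts3 were called in all 20 alternatives run. Adamts6 was called in 19 and Adamts5 in 18, while Timp2 was called in 8 and Adamts1 in 6.

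**Figure D1:**
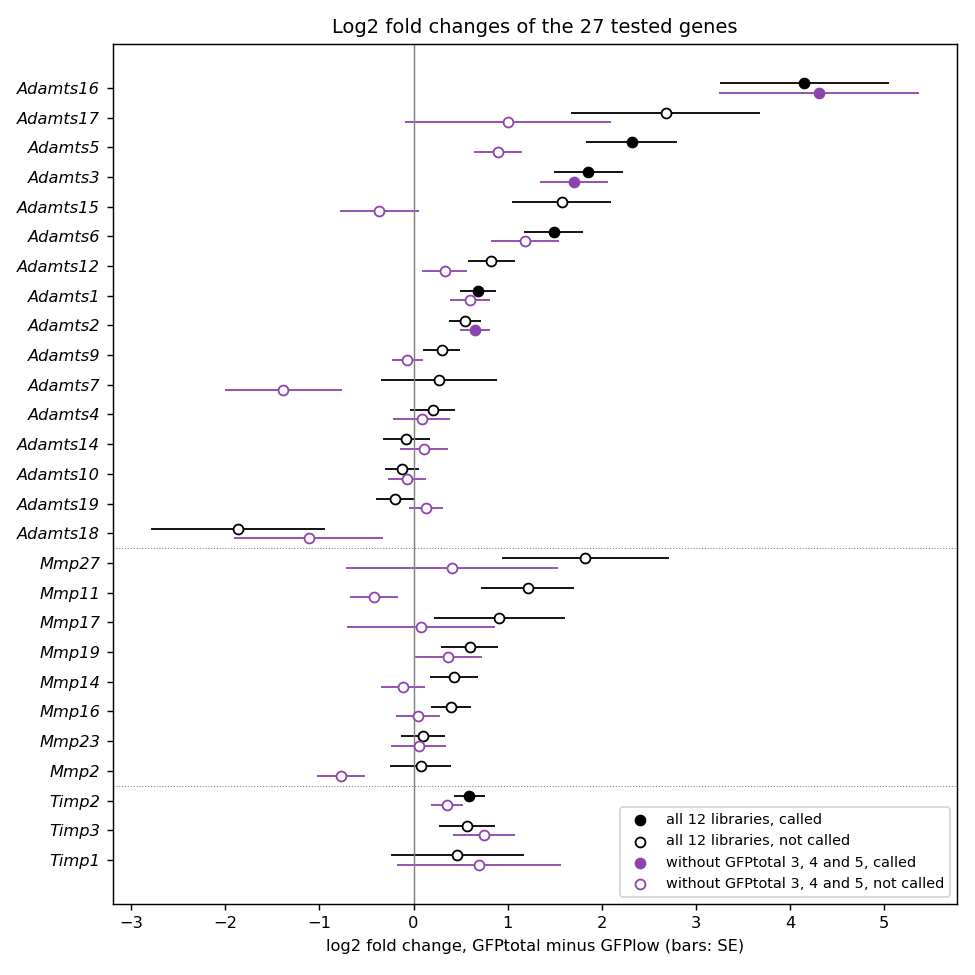
Log2 fold changes (GFPtotal minus GFPlow, x axis) of the 27 tested genes, with bars for the SE, from all 12 libraries (black) and without GFPtotal 3, 4 and 5 (purple). Filled points passed the threshold. Adamts16 and Adamts3 were filled in both, 6 genes moved from above 0 to below 0 (Mmp2, Mmp11, Mmp14, Adamts7, Adamts9 and Adamts15), and 2 the other way (Adamts14 and Adamts19).

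Compared per length, in fragments per kilobase of exon scaled to library size (FPKM, mean of a group), the inhibitor Timp2 was the most abundant of the 46 genes, at 111 ± 19.9 FPKM in GFPtotal and 73.9 ± 17.5 FPKM in GFPlow (SD, n = 6 each). Adamts1 followed, at 97.7 ± 14.7 and 60.8 ± 18.0 FPKM, and then Adamts12 at 79.1 ± 25.2 and 44.6 ± 15.3 FPKM. These neighbours in the order overlapped within their spread. All 8 tested MMP genes lay below them: the highest, Mmp2, Mmp11 and Mmp14, had 21.3, 27.2 and 15.4 FPKM in GFPtotal and 20.2, 11.7 and 11.5 FPKM in GFPlow. Summed per length, the ADAMTS genes reached 301 ± 55.1 FPKM in GFPtotal and 187 ± 22.9 FPKM in GFPlow, the MMP genes 96.1 ± 47.7 and 66.3 ± 11.9 FPKM, and the TIMP genes 133 ± 19.1 and 88.3 ± 23.7 FPKM. Adamts1 alone made up 20.9% to 40.6% of the ADAMTS sum in each library, and Timp2 76.1% to 90.8% of the TIMP sum.

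**Figure D2:**
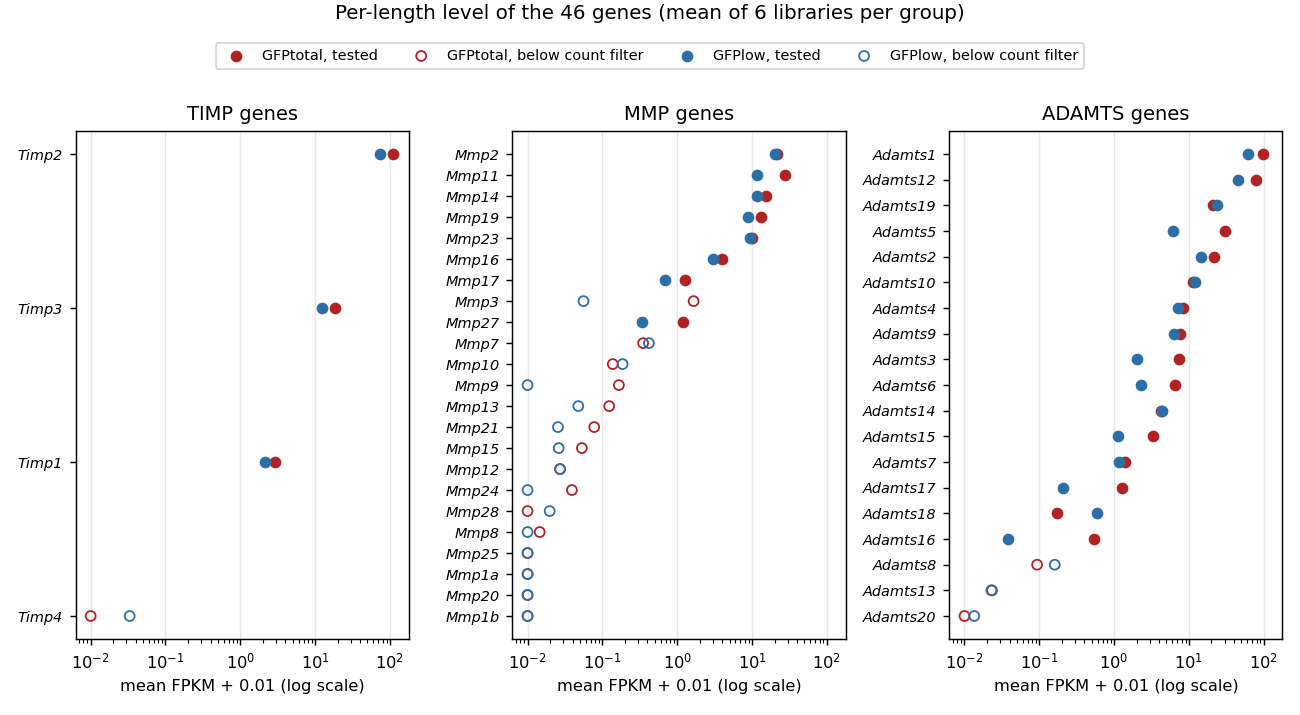
Mean level per length (FPKM + 0.01, log axis) of the 46 genes in GFPtotal (red) and GFPlow (blue), 6 libraries each. Filled points are tested genes and open points lie below the count filter. Timp2, Adamts1 and Adamts12 lead, and most MMP genes lie under 1 FPKM.

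Among the proteases that cut proteoglycans such as versican and aggrecan, Adamts5 and Adamts1 were called higher in GFPtotal, while Adamts4, Adamts9 and Adamts15 were tested and not called by edgeR with all libraries. Adamts5 (ENSMUSG00000022894, chromosome 16, 85858170 to 85901125, GRCm38, minus strand) is the main aggrecan-cutting enzyme of mouse cartilage. Its level had a lowest, median and highest value of 63.7, 221 and 486 CPM in GFPtotal, against 25.2, 51.1 and 66.7 CPM in GFPlow. Only GFPtotal 1 lay within the GFPlow range. The log2 fold change was 2.32 (SE 0.48, adjusted p = 0.0145). Most of it lay in GFPtotal 3, 4 and 5, at 314 to 486 CPM, where GFPtotal 1, 2 and 6 stood at 63.7 to 129 CPM. Without those 3 libraries it was 0.90 (adjusted p = 0.102), and with limma-voom it was not called.

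Adamts1 (ENSMUSG00000022893), 55.1 kb away on the same strand of chromosome 16 (85793827 to 85803113), is a versican-cutting protease required for normal female fertility in mice. It ranged from 392 through a median of 530 to 620 CPM in GFPtotal, and from 186 through 297 to 452 CPM in GFPlow. GFPtotal 6 (392 CPM) lay below GFPlow 5 and GFPlow 6, and the other 5 GFPtotal libraries lay above every GFPlow library. The log2 fold change was 0.68 (SE 0.19, adjusted p = 0.0407), and it was 0.60 without GFPtotal 3, 4 and 5 (adjusted p = 0.222). The 2 neighbours thus differed in where the values lay: GFPtotal 3, 4 and 5 overlapped GFPtotal 1, 2 and 6 for Adamts1 and lay wholly above them for Adamts5. The call on Adamts1 was also lost when any one of GFPtotal 1 to 5 or GFPlow 1 to 4 was left out, with RLE scaling, with scaling by total library size alone and without mitochondrial genes.

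Adamts4 stood at 39.7 ± 6.77 and 34.5 ± 12.8 CPM in GFPtotal and GFPlow (log2 fold change 0.20, adjusted p = 0.709). Adamts9, which shares 12.0% of its exonic bases with the antisense transcript A730049H05Rik and was counted without strand, stood at 115 ± 40.9 and 93.8 ± 9.08 CPM (0.30, adjusted p = 0.446, and −0.06 without GFPtotal 3, 4 and 5). Adamts15, named here after its values were seen, was highest in GFPtotal 3, 4 and 5 (28.0 to 36.8 CPM), with 4.53 to 6.26 CPM for GFPtotal 1, 2 and 6 and 3.64 to 9.50 CPM for the GFPlow libraries. It had a log2 fold change of 1.57 (adjusted p = 0.101), and −0.36 without those 3 libraries. DESeq2 called it, as did edgeR without GFPtotal 2 or GFPtotal 6. The substrate gene Vcan (versican), also named after its values were seen, stood at 1446 ± 439 and 1295 ± 305 CPM (0.16, adjusted p = 0.748). Within GFPtotal, Vcan was lower in GFPtotal 3, 4 and 5 (728 to 1495 CPM) than in GFPtotal 1, 2 and 6 (1622 to 1911 CPM).

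Of the procollagen N-propeptidases, which remove the amino-terminal propeptide of fibrillar collagens, Adamts3 was called and Adamts2 and Adamts14 were not. Adamts3 (ENSMUSG00000043635, chromosome 5, 89677087 to 89883334, minus strand) also cleaves the precursor of the lymphatic growth factor VEGF-C. It ranged from 16.5 through a median of 40.3 to 68.9 CPM in GFPtotal and from 2.98 through 12.2 to 14.2 CPM in GFPlow. The groups did not overlap, as for 3 of the 27 genes in this direction and 0 in the other, against 2.86% and 0.806% of all genes tested. Adamts3 was called at 1.86 (log2, SE 0.36, adjusted p = 0.0055), and 1.70 without GFPtotal 3, 4 and 5 (adjusted p = 0.0205). GFPtotal 5 was the lowest of its group and GFPlow 5 the lowest of all.

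Adamts2, the principal processing enzyme of type I procollagen, ranged from 146 through 205 to 251 CPM in GFPtotal and from 103 through 138 to 160 CPM in GFPlow. The lowest GFPtotal libraries, 3 and 5, fell within the GFPlow range. The log2 fold change was 0.55 (SE 0.17, adjusted p = 0.0686). It passed the threshold on leaving out GFPtotal 5 alone, or GFPtotal 3, 4 and 5 together (0.65, adjusted p = 0.0395). Adamts14 was at 21.8 ± 6.19 and 22.9 ± 5.01 CPM (−0.08, adjusted p = 0.906, and 0.11 without GFPtotal 3, 4 and 5). Col3a1, a substrate gene of this group, was called higher, by 0.69 (log2, SE 0.14, adjusted p = 0.00782). The type I collagen genes, Col1a1 (0.82, adjusted p = 0.0689) and Col1a2 (0.56, adjusted p = 0.103), were not called with all libraries. Both were named after their values were seen.

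Adamts16 (ENSMUSG00000049538, chromosome 13, 70727802 to 70841811, minus strand), a protease studied for a link to blood pressure in rats, had the largest fold change of the 27 tested genes and the lowest level per length averaged over the 12 libraries, at 0.536 FPKM in GFPtotal and 0.0287 FPKM in GFPlow. It had 297 counts in GFPtotal and 20 in GFPlow, of which 14 lay in GFPlow 2. Its lowest, median and highest values were 1.47, 3.14 and 6.50 CPM in GFPtotal and 0, 0.0659 and 0.791 CPM in GFPlow, with 2 GFPlow libraries at 0 counts. All 6 GFPtotal libraries lay above all 6 GFPlow libraries, and GFPtotal 3, 4 and 5 (1.47 to 5.32 CPM) overlapped GFPtotal 1, 2 and 6 (2.40 to 6.50 CPM). The log2 fold change was 4.15 (SE 0.90, adjusted p = 0.0106), 5.45 without GFPlow 2 and 4.31 without GFPtotal 3, 4 and 5 (adjusted p = 0.0477). Its closest relative in the family, Adamts18, named after its values were seen, lay the other way without passing the test: GFPtotal spanned 0 to 2.43 CPM and GFPlow 0.543 to 5.20 CPM (−1.86, SE 0.92, adjusted p = 0.277).

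Adamts6 (ENSMUSG00000046169, chromosome 13, 104287873 to 104494763, plus strand) belongs to the members linked to fibrillin microfibrils. It ranged from 24.6 through 25.7 to 46.5 CPM in GFPtotal and from 4.52 through 10.5 to 17.1 CPM in GFPlow, without overlap. GFPtotal 1, 2, 5 and 6 lay close together, at the lower end of the group, and GFPtotal 3 and 4 above them. Adamts6 was called at 1.49 (log2, SE 0.31, adjusted p = 0.00897), and 1.19 with GFPtotal 3, 4 and 5 left out, where the call was lost (adjusted p = 0.138). Adamts10, the member whose human counterpart is mutated in Weill-Marchesani syndrome, stood at 60.9 ± 13.5 and 66.3 ± 12.8 CPM (−0.12, adjusted p = 0.774). Adamts19, the third of the ADAMTS genes by level per length averaged over the 12 libraries, ranged from 66.0 through 91.8 to 130 CPM in GFPtotal and from 79.1 through 110 to 148 CPM in GFPlow (−0.20, SE 0.21, adjusted p = 0.664). Here GFPtotal 3, 4 and 5 were the lowest of all 12 libraries, at 66.0 to 72.7 CPM, and without them the value was 0.13. Adamts17, named after its values were seen, was likewise highest in GFPtotal 3, 4 and 5 (15.0 to 17.9 CPM), with 0 to 7.35 CPM for GFPtotal 1, 2 and 6 and 0.177 to 5.00 CPM for the GFPlow libraries (2.68, SE 1.00, adjusted p = 0.150; 1.01 without those 3 libraries). Adamts17 was called by DESeq2 and by edgeR without GFPtotal 6.

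Adamts12, which with Adamts7 cleaves cartilage oligomeric matrix protein, ranged from 348 through 459 to 684 CPM in GFPtotal and from 135 through 274 to 405 CPM in GFPlow. GFPtotal 3, 4 and 5 lay above all GFPlow libraries, and GFPtotal 1, 2 and 6 lay within the upper part of the GFPlow range. The log2 fold change of 0.83 (SE 0.25) missed the threshold (adjusted p = 0.0655) and passed it without GFPtotal 1, GFPtotal 2 or GFPlow 5 alone. With GFPtotal 3, 4 and 5 left out it was 0.33 (adjusted p = 0.649). Adamts7 stood at 8.76 ± 8.75 and 7.28 ± 4.41 CPM (0.27, adjusted p = 0.862). GFPtotal 1, 2 and 6 averaged 2.83 CPM and GFPtotal 3, 4 and 5 averaged 14.7 CPM for Adamts7, and without the latter its value turned to −1.38 (adjusted p = 0.378).

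**Figure D3:**
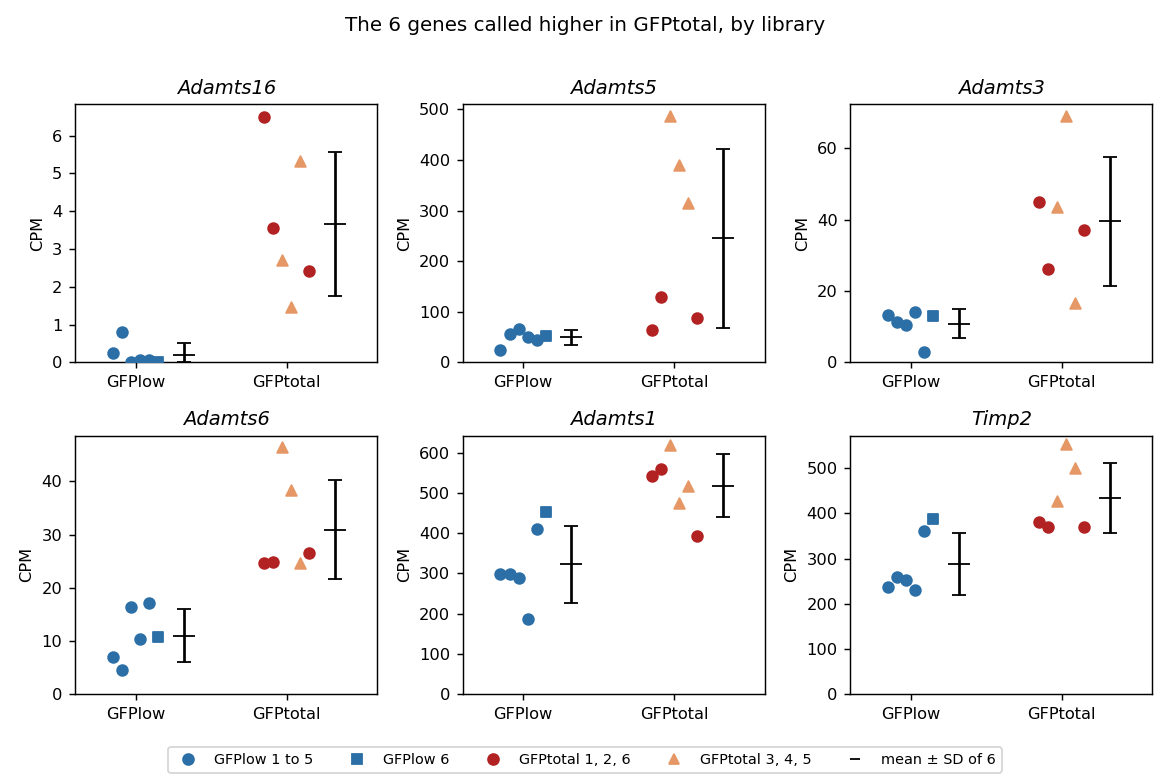
CPM by library (y axis, linear from 0) of the 6 genes called higher in GFPtotal, with the mean ± SD of 6 libraries in black (bars end at 0). Triangles are GFPtotal 3, 4 and 5, and the square is GFPlow 6. The groups are apart for Adamts16, Adamts3 and Adamts6, and the triangles lead Adamts5 and Timp2.

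Of the TIMP genes, Timp2 was called higher, Timp3 and Timp1 were tested and not called, and Timp4 lay below the filter. Timp2 (ENSMUSG00000017466, chromosome 11, 118301069 to 118355740, minus strand) inhibits MMPs and also takes part in the activation of pro-Mmp2 by Mmp14 at the cell surface. Its lowest, median and highest levels were 369, 405 and 555 CPM in GFPtotal and 231, 255 and 388 CPM in GFPlow. GFPlow 6, at 388 CPM, lay above GFPtotal 1, 2 and 6 (369 to 381 CPM). Timp2 was called at 0.59 (log2, SE 0.17, adjusted p = 0.0473), and 0.36 with GFPtotal 3, 4 and 5 left out (adjusted p = 0.432). The call was also lost when any one of GFPtotal 3 to 5 or GFPlow 1 to 4 was left out, with RLE scaling, with scaling by total library size alone and without mitochondrial genes.

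Timp3 (ENSMUSG00000020044, chromosome 10), a matrix-bound inhibitor, lies within the antisense gene Syn3 and shares 21.3% of its exonic bases with it. It ranged from 95.1 through 138 to 237 CPM in GFPtotal and from 49.5 through 92.0 to 194 CPM in GFPlow, and the groups overlapped widely. Timp3 had a difference of 0.57 (log2, SE 0.30, adjusted p = 0.305), with the highest GFPlow value in GFPlow 6. Without that library it was 0.87 (SE 0.25, adjusted p = 0.0712). Timp1 (ENSMUSG00000001131, X chromosome), an inhibitor often induced in activated fibroblasts, was low: GFPtotal spanned 0.619 to 7.93 CPM and GFPlow 0.706 to 5.60 CPM. The highest Timp1 values lay in GFPtotal 2 and GFPlow 5, and the log2 fold change was 0.46 (SE 0.70, adjusted p = 0.777). Timp4 had 13 counts, all in GFPlow 1, and 0 in GFPtotal, which allows a level of up to 0.0367 CPM over the 6 libraries (3 counts, counting error only).

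No MMP gene was called. Of the 8 tested, 1 (Mmp11) had an unadjusted p under 0.05, and DESeq2 and limma-voom called 0. The gelatinase Mmp2 (ENSMUSG00000031740, chromosome 8, 92827328 to 92853417), which degrades gelatin and type IV collagen, ranged from 32.6 through 49.3 to 112 CPM in GFPtotal and from 40.6 through 61.4 to 89.9 CPM in GFPlow. GFPtotal 4 and 5 (110 and 112 CPM) were the highest of the 12 libraries, and GFPtotal 1 and 2 the lowest. With all libraries the log2 fold change came to 0.08 (SE 0.32, adjusted p = 0.931), and −0.77 without GFPtotal 3, 4 and 5 (adjusted p = 0.183), so its direction turned with those libraries.

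Mmp11 (stromelysin-3, ENSMUSG00000000901, chromosome 10, 75923222 to 75932502), a stromal enzyme activated inside the cell by furin, ranged from 21.5 through 53.9 to 175 CPM in GFPtotal and from 22.7 through 28.3 to 39.4 CPM in GFPlow. GFPtotal 3, 4 and 5 held 83.6 to 175 CPM, and GFPtotal 1, 2 and 6 lay at 21.5 to 24.3 CPM. It differed by 1.21 (log2 fold change, SE 0.49, adjusted p = 0.181) with all libraries and by −0.42 without GFPtotal 3, 4 and 5. Mmp14 (ENSMUSG00000000957, chromosome 14), the membrane-type protease that activates pro-Mmp2, ranged from 44.6 through 53.5 to 111 CPM in GFPtotal and from 33.1 through 45.4 to 73.6 CPM in GFPlow (0.43, SE 0.26, adjusted p = 0.379; −0.11 without those 3 libraries).

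The other tested MMP genes were Mmp16 and Mmp17, membrane-anchored enzymes, and Mmp19, Mmp23 and Mmp27. Their log2 fold changes were 0.40, 0.91, 0.60, 0.10 and 1.83, and their adjusted p-values 0.314, 0.519, 0.293, 0.862 and 0.264. Without GFPlow 6 the value of Mmp17 was 1.52 (adjusted p = 0.267). Mmp19 shares 23.1% of its exonic bases with the antisense gene Tmem198b. Untested members outside the chromosome 9 cluster described next had at most 99 counts over the 12 libraries (Adamts8). Mmp9, the gelatinase of neutrophils and macrophages, had 49 counts, 44 of them in GFPtotal 5. Mmp25 had 0 counts.

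A cluster of 10 MMP genes on chromosome 9 (7272514 to 7699585, GRCm38) holds the collagenases Mmp13, Mmp1a and Mmp1b, the neutrophil collagenase Mmp8, the stromelysins Mmp3 and Mmp10, the macrophage elastase Mmp12, the matrilysin Mmp7, and Mmp20 and Mmp27. Only Mmp27 passed the filter. The cluster as a whole had 573 counts in GFPtotal and 178 in GFPlow, and 3 of its genes (Mmp1a, Mmp1b and Mmp20) had 0, which allows up to 0.0166 CPM over the 12 libraries (3 counts). Genes of such clusters are related in sequence, so reads can be lost at a mapping quality minimum of 10, which was not tested.

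Most counts of the cluster in GFPtotal, 511 of 573, lay in GFPtotal 3, 4 and 5. Mmp3 (stromelysin-1, ENSMUSG00000043613), named after its values were seen, had 76, 60 and 130 counts there and 0 in GFPtotal 1, 2 and 6. GFPlow 3 had 6 counts and GFPlow 4 had 2, and the other GFPlow libraries had 0. Mmp3 was thus present in GFPtotal in the libraries that stood apart. Keeping all genes with a count, its log2 fold change of 5.02 missed the threshold (adjusted p = 0.122).

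Promoter sequence set this cluster apart from the other members, as a description of letters and not of binding. RefSeq windows (GRCm38.p6, the 250 bases before each annotated start, both strands searched) were found for 32 of the 46 genes, including all 10 of the cluster. The AP-1 site TGAGTCA, long known from MMP promoters, was found in 7 of the 10 cluster genes (Mmp1a, Mmp1b, Mmp3, Mmp7, Mmp10, Mmp12 and Mmp13) and in 0 of the other 22, against 4.46% of all 32851 windows. The TATA box TATAAA was found in 9 of the 32 genes (12.4% of all windows), and the GC box GGGCGG, bound by Sp1, in 16 (32.7%). Of the other motifs, TGGGAA (RBPJ) was found in 5 (21.6% of all windows), AGAACA (progesterone receptor half-site) in 4 (16.1%) and the CArG box in 0 (1.47%). Different motifs did not overlap in these windows, and 1 pair of matches to the same motif did. The G and C content was 37.2% to 53.2% in the cluster and 53.6% to 79.2% in the other members, taking the highest window of each gene. The median over all windows was 52.4%. The value of 53.2% came from a second window of Mmp7, whose other window had 38.0%.

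The windows of Mmp3 (chr9:7445572-7445821, plus strand) and Mmp13 (chr9:7272264-7272513, plus strand) are shown because they carry the AP-1 site and the TATA box close to the start, in genes with at most 10 counts in GFPlow. They read 5′ to 3′ along the gene, with matches to the AP-1 site, the TATA box and the GC box on either strand in capitals.
Mmp3: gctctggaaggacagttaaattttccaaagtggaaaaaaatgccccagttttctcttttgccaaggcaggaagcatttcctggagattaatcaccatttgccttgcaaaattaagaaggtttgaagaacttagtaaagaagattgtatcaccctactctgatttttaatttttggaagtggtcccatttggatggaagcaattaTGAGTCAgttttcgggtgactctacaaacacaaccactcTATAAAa
Mmp13: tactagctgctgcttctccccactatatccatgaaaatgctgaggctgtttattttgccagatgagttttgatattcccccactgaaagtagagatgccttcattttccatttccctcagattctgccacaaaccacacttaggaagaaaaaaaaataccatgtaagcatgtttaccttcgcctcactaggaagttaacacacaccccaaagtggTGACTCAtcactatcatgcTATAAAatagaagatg

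In Mmp3 the first base of the AP-1 site lies 46 bases before the annotated start and that of the TATA box 7 bases, and in Mmp13 these distances are 35 and 16. For comparison, the same windows follow for the called genes that have one, Adamts1 (chr16:85803114-85803363, minus strand), Adamts3 (chr5:89883335-89883584, minus strand) and Timp2 (chr11:118355412-118355661, minus strand), with capitals as above.
Adamts1: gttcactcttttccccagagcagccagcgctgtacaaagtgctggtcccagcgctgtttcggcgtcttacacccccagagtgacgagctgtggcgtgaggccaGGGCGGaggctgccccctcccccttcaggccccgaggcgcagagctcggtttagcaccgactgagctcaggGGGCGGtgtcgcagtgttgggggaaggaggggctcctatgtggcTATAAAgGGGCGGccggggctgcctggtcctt
Adamts3: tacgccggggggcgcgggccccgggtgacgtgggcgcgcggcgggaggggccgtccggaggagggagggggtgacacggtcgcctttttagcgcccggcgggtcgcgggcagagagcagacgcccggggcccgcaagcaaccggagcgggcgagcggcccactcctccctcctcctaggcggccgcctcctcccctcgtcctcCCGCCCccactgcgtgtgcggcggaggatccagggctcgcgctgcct
Timp2: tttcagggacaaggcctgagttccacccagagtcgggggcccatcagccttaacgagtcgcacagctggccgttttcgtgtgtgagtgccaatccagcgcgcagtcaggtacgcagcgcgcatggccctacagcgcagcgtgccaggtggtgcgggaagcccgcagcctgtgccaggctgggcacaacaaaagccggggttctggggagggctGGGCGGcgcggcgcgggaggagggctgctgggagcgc

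All 3 hold a GC box (3 matches in Adamts1, 1 each in Adamts3 and Timp2), 1 (Adamts1) holds a TATA box, and 0 hold the AP-1 letters. Called genes that are not shown are Adamts5, Adamts6 and Adamts16.

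GFPtotal 3, 4 and 5 lay wholly above GFPtotal 1, 2 and 6 for 10 of the 27 tested genes and wholly below for 1 (Adamts19). Of all genes tested, 16.7% lay above and 15.7% below in the same way. The 10 were Adamts5, Adamts7, Adamts12, Adamts15, Adamts17, Mmp2, Mmp11, Mmp14, Mmp16 and Timp2, and the ratio of mean CPM was highest for Adamts15 (6.54), Adamts17 (5.27), Adamts7 (5.19) and Mmp11 (5.12). These libraries were picked from the data, so no test was made. Per length, the MMP sum was 134 ± 35.6 FPKM in them and 57.9 ± 5.38 FPKM in GFPtotal 1, 2 and 6 (SD, n = 3 each). The TIMP sum was 145 ± 20.7 and 120 ± 5.13 FPKM, so the TIMP sum was 1.12 ± 0.241 times the MMP sum in the former and 2.09 ± 0.111 times in the latter. In GFPlow that ratio was 1.35 ± 0.352 (n = 6).

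Sums of pericyte, fibroblast, smooth muscle, epithelial and macrophage markers set GFPtotal 3, 4 and 5 apart from GFPtotal 1, 2 and 6. Endothelial and neutrophil sums overlapped. GFPtotal 3, 4 and 5 had pericyte sums of 1574 to 2022 CPM, against 946 to 1275 CPM for GFPtotal 1, 2 and 6. The fibroblast sums were 23693 to 27637 and 37864 to 40363 CPM, but only 6 of 12 fibroblast markers, among them Col1a1, Col1a2 and Col3a1, had the lower mean in GFPtotal 3, 4 and 5. The other 6 had the higher mean there, among them Pdgfra (648 against 366 CPM) and Fbln1 (28.2 against 7.71 CPM). In the same order, the smooth muscle sums were 621 to 754 and 454 to 493 CPM. For epithelial markers (12 genes), the sums were 15.8 to 43.1 CPM in the former, 2.49 to 8.04 CPM in the latter and 9.42 to 27.2 CPM in GFPlow. Most of that difference lay in Ltf (mean 15.9 against 1.17 CPM) and Cdh1 (6.15 against 1.25 CPM), and 4 markers (Krt7, Krt8, Krt19 and Esrp1) had the lower mean in GFPtotal 3, 4 and 5. Of the epithelial markers, 8 of 12, including Krt8, Krt18 and Wfdc2, averaged under 1 CPM in both groups. Macrophage sums were 6.72 to 17.7, 3.81 to 6.15 and 4.31 to 16.1 CPM in the same order, with 11 of 12 markers under 1 CPM and C1qa at 0. Neutrophil sums were at most 5.46 CPM, with S100a8, S100a9 and Elane at 0. The part of these cells in the protease values was not tested.

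**Figure D4:**
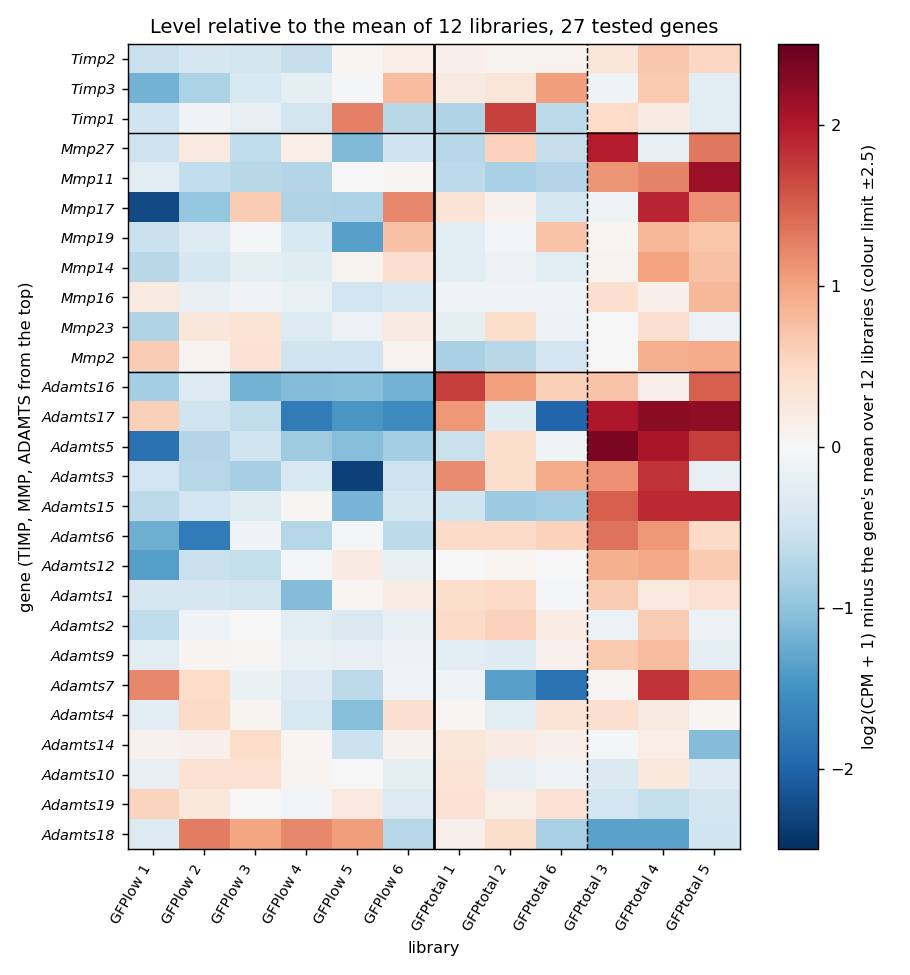
Level of the 27 tested genes by library, as log2(CPM + 1) minus the gene's mean over 12 libraries (colour, limited at ±2.5). Columns are GFPlow, then GFPtotal 1, 2 and 6, then GFPtotal 3, 4 and 5 after the dashed line. Adamts5, Adamts15, Adamts17 and Mmp11 are highest in the last 3 columns, and Adamts16 is high over both parts of GFPtotal.

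Genes that work with these proteases were read from 5 lists. Of the activators and regulators of pericellular proteolysis, for which no count is given, Plat, tissue plasminogen activator, was called higher, at 38.3 ± 20.6 and 11.4 ± 6.28 CPM in GFPtotal and GFPlow (1.75, SE 0.44, adjusted p = 0.0279). Without GFPtotal 3, 4 and 5 it was not called (0.82, adjusted p = 0.489). The call on Plat was also lost when any one of GFPtotal 3 to 5, GFPlow 3, GFPlow 4 or GFPlow 6 was left out and with scaling by total library size alone.

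ADAMTS-like proteins share the ancillary domains of the ADAMTS proteases and lack the protease domain. Of 6 tested, 3 were higher and 0 lower (median 1.06), and 1 was higher without GFPtotal 3, 4 and 5. Thsd4, which binds fibrillin, stood at 20.3 ± 5.79 and 2.57 ± 1.57 CPM, without overlap (2.97, SE 0.42, adjusted p = 0.000425, and 3.15 without those libraries). Adamtsl5 (1.65, adjusted p = 0.0306) and Adamtsl1 (1.10, adjusted p = 0.0306) were called with all libraries and were not called without them (adjusted p = 0.210 and 0.469). Both calls were also lost when single libraries were left out: without GFPtotal 4 or 5 or GFPlow 2 or 3 for both, and further without GFPtotal 6 or GFPlow 1 or 4 for Adamtsl5 and GFPtotal 3 or GFPlow 6 for Adamtsl1.

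Of 7 tested ADAM proteases, the membrane-bound relatives, 1 was higher and 0 lower (median −0.0061): Adam19, at 98.6 ± 20.8 and 55.7 ± 15.7 CPM (0.82, SE 0.21, adjusted p = 0.0292). That call was lost when any one of GFPtotal 3 to 6, GFPlow 1, GFPlow 2 or GFPlow 4 was left out, with scaling by total library size alone and without GFPtotal 3, 4 and 5 together (adjusted p = 0.273), where 0 of 7 were called. Without GFPlow 6, 3 of 9 tested were called higher (Adam19, Adam23 and Adam33, the last pair below the filter with all libraries), with a median of 0.14. Of 3 tested procollagen C-proteinases and enhancers, 0 were called by edgeR (median 0.38): Bmp1, the C-proteinase, had a log2 fold change of −0.04, and Pcolce, its enhancer, 1.42 (adjusted p = 0.0687). DESeq2, limma-voom and the fit without GFPlow 6 called Pcolce. Without GFPtotal 3, 4 and 5 the value of Pcolce was 0.67 (adjusted p = 0.626), and the median of the 3 genes was −0.16. Among 14 tested substrate genes, 3 were higher and 1 lower (median 0.34), and without GFPtotal 3, 4 and 5 the counts were 5 (Bgn, Col1a1, Col1a2, Col3a1 and Fbn2) and 0 of 15. The proteoglycan Bgn (1.34, SE 0.17, adjusted p = 0.000153) and Col3a1 were called in every alternative. Col4a1 (0.76, adjusted p = 0.0118) was not called without GFPtotal 3, 4 and 5 or with scaling by total library size alone. Sdc4, syndecan-4, was lower (−1.16, SE 0.32, adjusted p = 0.0388), and its call was lost in 9 of 20 alternatives: without GFPtotal 3, 4 and 5 together, and on leaving out any one of GFPtotal 2, 3, 5 and 6 and GFPlow 2, 3, 4 and 6.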

How the data were processed

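RNA sequencing counts of 12 libraries (6 GFPtotal, 6 GFPlow) were used. Raw counts per gene were deposited. They come from featureCounts 1.6.4, run on read pairs with mapping quality 10 or more, exons of Ensembl release 84 (GRCm38) and no strand, per the file headers. The submitters' processing notes also name cutadapt and SAMtools. No source used here names the aligner. In 12 of 12 libraries the deposited series table matched the single file. Symbols were matched by Ensembl identifier for 47224 of 47729 genes.

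Counts were filtered with filterByExpr, scaled by TMM and tested with edgeR 4.0.16 (quasi-likelihood, robust, no covariate; R 4.3.3), GFPtotal minus GFPlow, two-sided, with Benjamini-Hochberg adjustment over 14523 genes. The SE is the log2 fold change divided by the square root of F. FPKM were computed from the deposited exonic lengths. Alternatives used RLE scaling, total library size, no mitochondrial genes, no filter, DESeq2 1.42.0, limma-voom (limma 3.58.1), a replicate block, each library left out, and GFPtotal 3, 4 and 5 left out. The scripts were tested on simulated data.

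The members and lists were chosen with earlier results of these data known. Given value by value were the called members, the TIMP genes, members whose groups did not overlap, and the 3 most abundant per length of the MMP and ADAMTS families; of each list, up to 4 called genes, or else the 2 most abundant. Other members given with values were chosen after those were seen. No 2 libraries of a group agreed within sampling noise (chi-square per degree of freedom at least 19.5). Exonic bases overlap another gene in 11 of the 46 genes, by 10% or more in 7. A gene of the related lists is not reported here.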

Additional observations from a re-analysis of the deposited data

Results flagged for a closer look

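Dixon's test was applied to 37 sets of 6 libraries (19 named genes in each group, less 1 set with 0 counts). In 7 of them a library lay far from the other 5. Chance flags about 1 in 20 where values are normally distributed. Some flagged GFPlow sets held few counts (Timp4 13, Mmp3 8 and Adamts16 20), so the 7 cannot be set against that rate. For Adamts16, GFPlow 2 stood at 0.791 CPM and the others at 0 to 0.253 CPM. Adamts3 stood at 2.98 CPM in GFPlow 5, below the others at 10.4 to 14.2 CPM. Timp1 stood at 7.93 CPM in GFPtotal 2 (others 0.619 to 2.79 CPM) and at 5.60 CPM in GFPlow 5 (others 0.706 to 1.58 CPM). Timp4 stood at 0.822 CPM in GFPlow 1, with the others at 0. Adamts17 stood at 5.00 CPM in GFPlow 1 (others 0.177 to 1.81 CPM), and Mmp3 at 0.377 CPM in GFPlow 3 (others 0 to 0.118 CPM).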

How the results depend on the processing

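The number of members called higher was 6, and 3 without GFPtotal 3, 4 and 5. It was 4 to 8 when single libraries were left out, 4 with RLE scaling, with total library size or without mitochondrial genes, 6 with no filter, 8 with DESeq2 and 5 with limma-voom, and members called lower were 0 throughout. Over all genes, 661 were called higher and 124 lower, against 1339 and 448 with DESeq2, 406 and 61 without GFPtotal 3, 450 and 71 without GFPtotal 4, and 245 and 50 without GFPtotal 3, 4 and 5. No pairing of libraries by replicate number was seen. The deviations of same-numbered libraries from their group means correlated at −0.14 to 0.09, and 2 of 6 GFPtotal libraries correlated best with their own number. Such a check cannot exclude a pairing, since the deviations within GFPtotal also hold the split of GFPtotal 3, 4 and 5 from the rest. With the replicate block, 5 members were called (Adamts1, at 0.73, adjusted p = 0.0726, and Timp2, at 0.61, adjusted p = 0.0825, were not, and Adamts12 was, at 0.85), and of the other genes Plat (adjusted p = 0.105) and Adam19 (adjusted p = 0.0722) were not. Genes called over the 5 related lists numbered 10, and 6 to 13 when single libraries were left out (6 without GFPtotal 3, 4 or 5). Without GFPtotal 3, 4 and 5 directions turned in 8 of the 27 tested members, none of them called: Adamts7 (−1.38), Mmp2 (−0.77), Mmp11 (−0.42), Adamts15 (−0.36), Mmp14 (−0.11), Adamts9 (−0.06), Adamts14 (0.11) and Adamts19 (0.13). Mmp2 also turned with limma-voom (−0.020) and the replicate block (−0.072), and lay at −0.15 to 0.21 with single libraries left out. In the same fits Timp1 lay at −0.30 to 1.19 and Bmp1 at −0.14 to 0.060. The causes of these changes were not tested. Depth limits the cluster on chromosome 9 and Adamts16, whose counts were few.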
